A study of Mus musculus with 4 samples.

Results

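The CCN family is a group of secreted matricellular proteins, and its members *Ccn1* to *Ccn5* were followed here as 5 of the 32285 genes counted in single cells of injured and uninjured muscle. They were taken by gene symbol, and the related gene *Ccn6* was read alongside them. CCN proteins sit in the extracellular matrix, bind integrins, LRP receptors, heparan sulphate proteoglycans and growth factors, and so modulate how a cell reads its surroundings. *Ccn1* and *Ccn2* are classical early response and YAP/TEAD target genes, *Ccn4* and *Ccn5* were named for their induction by *Wnt1*, and *Ccn3* often opposes *Ccn2*. In the skeleton and in wounds the family is known for its roles in cartilage formation, fibrosis and bone healing.

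The cells came from tibial muscle of *Nse-Bmp4* mice on the C57BL/6 strain, aged 6 to 8 weeks, in which the neuron-specific enolase promoter (*Nse*) drives a *Bmp4* transgene and muscle injury leads to heterotopic ossification (HO), bone formed in soft tissue. Of the 4 libraries 1 came from uninjured muscle (Uninjured) and 3 from muscle injured with cardiotoxin, a snake venom toxin that kills muscle fibres, and taken 1, 3 or 7 days after the injury (days post injury, dpi). All 4 carried the transgene, Uninjured included, and no library without it was analysed here. Whether a level or a difference after injury depends on the transgene therefore cannot be told. Each library pooled 3 muscles and stood alone at its time point, so no test between time points was made, no p-value is given, and a difference between time points cannot be told apart from a difference between pools or preparations.

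The deposited values were unique molecular identifier (UMI) counts, each UMI standing for a captured transcript. The libraries held 11722 to 23752 cells and 91146335 to 129007669 UMIs, and the median depth fell with time from 8629 UMIs per cell in Uninjured to 5561.5, 4214 and 3083. A level in CPM is the sum of a gene's UMIs in a set of cells per 1000000 UMIs of those cells, and brackets hold exact 95% intervals, which hold counting error alone and nothing of the spread from mouse to mouse. For levels and ratios they also hold nothing of the spread from cell to cell. Pairs of libraries shared 30 to 95 cell barcodes. Cells were put in classes from marker genes, none of them a CCN gene. The mesenchymal class also took cells led by cartilage or tendon markers, *Kera* among the latter. It thus differs from the mesenchymal stem cell lineage of the study, which set *Kera* positive cells apart as stromal cells. The class took 8381, 3858, 6508 and 16530 cells from Uninjured and 1, 3 and 7 dpi, or 81.3%, 40.02%, 51.6% and 81.4% of the cells kept. Of these cells 99.2% had a UMI of *Col1a1*, 96.8% of *Dcn* and 57.7% of *Pdgfra*, against 40.5%, 38.5% and 3.22% of all other kept cells.

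The members were also compared in a short part of their coding sequences. A cysteine-rich stretch near the start of the protein, in the insulin-like growth factor binding module that opens all CCN proteins, is shown to let the members be compared, for each gene as 45 bases of the coding strand, with the letters that match GGNTGNNNNTGNTGN in capitals and N standing for any base. The pattern was set so that all 6 genes match it. It was searched in frame on the coding strand of 22301 genes and was held by 90 of them, or 0.404%. The 6 CCN genes are among the 90, so the pattern is not particular to the family.
*Ccn1*, chr3:145649325-145649369, minus strand: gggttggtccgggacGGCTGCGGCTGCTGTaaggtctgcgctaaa
*Ccn2*, chr10:24595951-24595995, plus strand: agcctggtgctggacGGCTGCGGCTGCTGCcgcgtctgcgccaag
*Ccn3*, chr15:54746250-54746294, plus strand: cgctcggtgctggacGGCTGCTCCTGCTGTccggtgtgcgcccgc
*Ccn4*, chr15:66906530-66906574, plus strand: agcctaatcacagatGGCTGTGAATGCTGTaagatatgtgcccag
*Ccn5*, chr2:163825210-163825254, plus strand: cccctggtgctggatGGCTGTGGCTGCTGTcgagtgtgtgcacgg
*Ccn6*, chr10:39158365-39158409, minus strand: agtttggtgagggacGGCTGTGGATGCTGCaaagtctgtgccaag

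These positions are on GRCm38 with the GENCODE M21 annotation, and each stretch lies in a coding exon, exon 3 of *Ccn5* and exon 2 of the other genes. Within these 45 bases the closest pairs among the 5 members were *Ccn1* with *Ccn2* and *Ccn2* with *Ccn5*, each alike at 34 bases (75.6%), and the most distant pair was *Ccn3* with *Ccn4*, alike at 24 bases (53.3%). The genes are spread over 4 chromosomes: *Ccn1* (ENSMUSG00000028195) at chr3:145646976-145649981, *Ccn2* (ENSMUSG00000019997) at chr10:24595442-24598683, *Ccn3* (ENSMUSG00000037362) at chr15:54745702-54754039, *Ccn4* (ENSMUSG00000005124) at chr15:66891320-66923201 and *Ccn5* (ENSMUSG00000027656) at chr2:163820861-163833146. Every member had 5 exons. *Ccn5*, the member that lacks the carboxy-terminal module, had the shortest coding sequence with 753 bases, against 1044 to 1137 bases for the others.

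The promoter of *Ccn1*, an immediate early gene, is shown because its level is set below against immediate early and YAP/TEAD target genes. The 250 bases before its start (RefSeq, GRCm38.p6, chr3:145649986-145650235, minus strand) hold 3 searched motifs, printed in capitals.
*Ccn1* promoter: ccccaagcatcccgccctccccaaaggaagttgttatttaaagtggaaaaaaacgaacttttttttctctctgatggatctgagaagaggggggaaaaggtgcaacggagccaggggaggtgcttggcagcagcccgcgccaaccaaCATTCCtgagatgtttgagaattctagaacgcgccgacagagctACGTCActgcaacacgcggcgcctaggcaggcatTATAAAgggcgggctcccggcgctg

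The TEAD motif CATTCC began 103 bases before the start, the cAMP response element motif TGACGT lay on the opposite strand 59 bases before it, and the TATA motif TATAAA lay 25 bases before it. Searched on both strands, these 3 motifs were present in 12.6%, 6.47% and 12.4% of 32851 promoters of the same length, so each match is a description of the letters and not a site of binding.

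In mesenchymal cells the 5 members followed different courses after injury. *Ccn1* was high in every library and changed little, *Ccn2* was highest at 3 dpi, *Ccn3* was lowest at 3 dpi and highest at 7 dpi, *Ccn4* was near absent before 3 dpi and highest at 7 dpi, and *Ccn5* had its highest level at 3 dpi and its lowest at 7 dpi. No pair of members had the same order of levels over the 4 libraries.

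**Figure D1:**
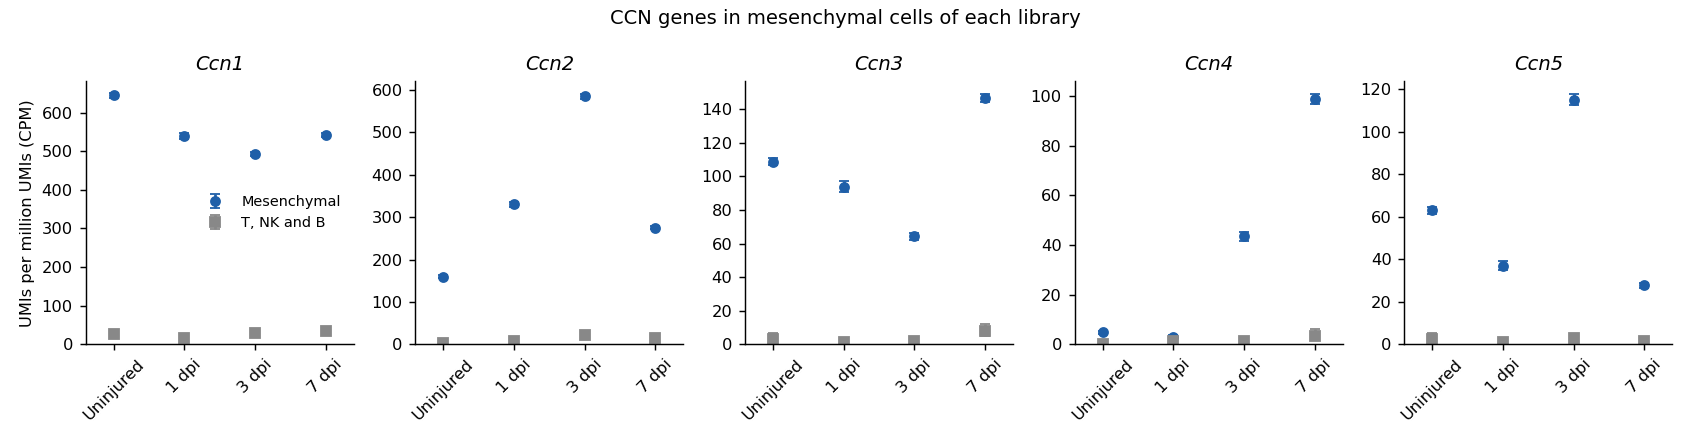
CPM of each CCN gene (vertical axis, starting at 0, own scale per gene) in mesenchymal cells (blue circles) and in T, NK and B cells together (grey squares) of each library, with exact 95% Poisson intervals. *Ccn4* stood at 4.84 CPM in mesenchymal cells of Uninjured and at 98.9 CPM at 7 dpi, while *Ccn1* kept between 492 and 644 CPM.

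*Ccn1*, a ligand of integrins that acts on vessels, matrix and senescence, stood at 644 CPM [639–650] in Uninjured, 539 [532–547] at 1 dpi, 492 [486–498] at 3 dpi and 541 [536–546] at 7 dpi. Its highest level was in uninjured muscle, and the levels of 1 and 7 dpi did not differ beyond their counting intervals. The ratio was 0.837 [0.824–0.851] from Uninjured to 1 dpi, 0.912 to 3 dpi and 1.10 to 7 dpi. *Ccn1* was also the most evenly detected member, with a UMI in 70.3% to 73.0% of mesenchymal cells of each library although their median depth ran from 9160 UMIs per cell in Uninjured to 3241 at 7 dpi. Cells with fewer than 1000 UMIs were left out of thinned shares, which left 8381, 3849, 6212 and 15400 mesenchymal cells. After each of these was thinned to 1000 UMIs, 35.4%, 32.7%, 33.6% and 37.7% had a *Ccn1* UMI.

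*Ccn2*, or connective tissue growth factor, which cartilage and scar tissue make in quantity, stood at 160 CPM [157–163] in Uninjured, 330 [324–336] at 1 dpi, 585 [579–592] at 3 dpi and 274 [271–278] at 7 dpi. It was thus higher at each step to 3 dpi, where it was 3.66 times its level in Uninjured, and lower again at 7 dpi. The successive ratios were 2.07 [2.01–2.12] and 1.77 [1.74–1.81], followed by a level 2.13-fold lower at 7 dpi. The first of these ratios, 1.05 on the log2 scale, came out at 0.87 when the sums were scaled by the median gene ratio and at 0.66 without any filter on cells, so it did not stay above 2-fold. The step from 3 to 7 dpi, -1.09 on the log2 scale, came out at -0.998 with median scaling, -0.99 without the filter and -0.87 after thinning. Thinned shares followed the same course, with 9.80%, 17.5%, 27.8% and 20.6% of cells holding a *Ccn2* UMI.

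*Ccn3*, known from quiescent and adventitial cells and from Notch signalling, stood at 109 CPM [106–111], 93.8 [90.7–97.1], 64.3 [62.2–66.4] and 147 [144–149] in Uninjured and at 1, 3 and 7 dpi. It was lowest at 3 dpi, where *Ccn2* was highest, but its highest level, at 7 dpi, did not meet the lowest level of *Ccn2*, which was in Uninjured. From 1 to 3 dpi it was 1.46-fold lower and from 3 to 7 dpi 2.28-fold [2.20–2.37] higher, a log2 ratio of 1.19 that came out at 0.75 after thinning.

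*Ccn4*, an osteogenic member induced by Wnt signalling, had 381 UMIs in 8381 mesenchymal cells of Uninjured and 108 in 3858 cells at 1 dpi, then 2453 and 8474 UMIs at 3 and 7 dpi. These counts gave 4.84 CPM [4.37–5.35], 3.05 [2.50–3.68], 43.5 [41.8–45.3] and 98.9 [96.8–101]. It made the largest step of any member, 14.3-fold [11.8–17.5] higher from 1 to 3 dpi, and a further 2.27-fold [2.17–2.38] higher to 7 dpi, where it was 20.4 times [18.4–22.7] its level in Uninjured. The last step, 1.19 on the log2 scale, was 0.98 without any filter on cells and 1.85 after thinning. From Uninjured to 1 dpi the ratio was 0.630 [0.504–0.782], a log2 ratio of -0.67 that was -1.71 without the filter. The thinned share of cells with a UMI was 0.310%, 0.130%, 2.46% and 8.40%.

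*Ccn5*, which restrains proliferation in several cell types, stood at 63.0 CPM [61.2–64.8], 37.0 [35.1–39.1], 115 [112–118] and 27.8 [26.7–28.9]. It was the only member that was lower at 1 dpi, higher at 3 dpi and lower again at 7 dpi. The steps were 1.70-fold lower, 3.11-fold [2.93–3.30] higher and 4.14-fold lower, and the first of them reached a log2 ratio of -1.05 without any filter on cells, against -0.77 with it. *Ccn6* was almost absent, with 16, 3, 21 and 22 UMIs in mesenchymal cells and 80 UMIs over all deposited cells of all 4 libraries.

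A change of 2-fold or more in the CPM of mesenchymal cells was common among genes with at least 20 UMIs over the pair of libraries compared. From Uninjured to 1 dpi, 10.2% of 15304 genes were at least 2-fold higher and 5.46% lower, and 1 member, *Ccn2*, was among the higher and none among the lower. From 1 to 3 dpi, 7.13% of 15222 genes were higher and 6.3% lower, and 2 members, *Ccn4* and *Ccn5*, were among the higher and none among the lower. From 3 to 7 dpi, 14.3% of 16381 genes were higher and 8.49% lower, and of the members *Ccn3* and *Ccn4* were among the higher and *Ccn2* and *Ccn5* among the lower. The median log2 ratio of the 5 members was -0.26, 0.83 and 0.14 over the 3 steps, beside 0.17, -0.08 and -0.05 for all these genes. Scaled by the median gene ratio, the first step moved by 0.178 on the log2 scale, and relative to it *Ccn1* was at -0.43, *Ccn3* at -0.39 and *Ccn5* at -0.94.

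**Figure D2:**
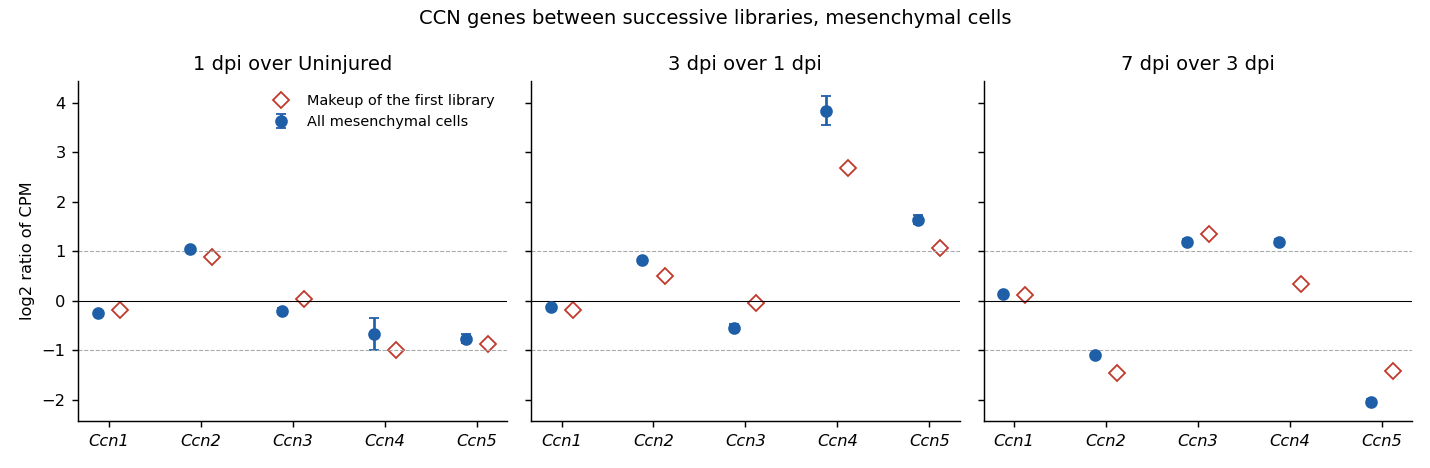
The log2 ratio of CPM (vertical axis) of each CCN gene between successive libraries in mesenchymal cells, over all mesenchymal cells (filled circles, 95% counting intervals) and with the makeup of marker list groups held at that of the earlier library (open diamonds). Dashed lines mark 2-fold. *Ccn4* from 1 to 3 dpi lies highest at 3.83, which is 14.3-fold. With the makeup held it lies at 2.68, which is 6.40-fold.

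Mesenchymal cells held most CCN UMIs of the kept cells. They accounted for 87.2% to 95.7% of the *Ccn1* UMIs of kept cells in the 4 libraries, 94.1% to 97.0% for *Ccn2*, 95.7% to 98.6% for *Ccn3*, 73.5% to 96.1% for *Ccn4* and 93.9% to 99.5% for *Ccn5*. The class was also 81.3%, 40.02%, 51.6% and 81.4% of the kept cells in Uninjured and at 1, 3 and 7 dpi. These UMI shares therefore also carry the number and depth of the cells. In Uninjured the share of *Ccn4*, 83.6%, was close to the share of cells. T, NK and B cells, which should lack these genes, served as the measure of free RNA in the droplets. In those lymphoid cells *Ccn1* was at 26.6, 17.1, 30.2 and 35.4 CPM, and the mesenchymal level was 15.3 to 31.5 times as high. For *Ccn2*, *Ccn3* and *Ccn5* the mesenchymal level was 18.0 to 40.4, 18.4 to 65.4 and 20.02 to 37.9 times the lymphoid level. *Ccn4* at 1 dpi was only 2.51 times [1.35–5.18] the lymphoid level, with 11 UMIs in 2355 lymphoid cells, and its level in that library is close to this background. In lymphoid cells of Uninjured *Ccn4* had no UMI, which allows up to 1.37 CPM.

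Markers of other cell types were present at low levels in the mesenchymal cells and moved between libraries. *Ptprc*, which all leucocytes carry, stood at 1.11, 10.98, 7.91 and 20.8 CPM, and the summed level of the 6 neutrophil markers at 42.5, 167, 121 and 124 CPM, all 6 with a UMI in every library. The 7 mural markers without *Acta2* summed to 53.6, 35.8, 30.3 and 182 CPM, also with none at 0, and the 7 endothelial markers to 3.63, 3.05, 4.61 and 15.8 CPM, with *Emcn* alone at 0 at 1 dpi. The 7 Schwann markers summed to 44.3, 34.6, 26.6 and 139 CPM and the 7 T and NK markers to 1.80, 9.74, 12.96 and 42.8 CPM, with none at 0. In *Lrrc15*-list cells, a group described below by its markers, the Schwann markers went from 20.4 to 125 CPM and the mural markers without *Acta2* from 33.4 to 144 CPM between 3 and 7 dpi. Their part in the CCN levels was not tested.

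Outside the mesenchymal class, *Ccn1* was shared by several other cell types of muscle. *Ccn2* was also found in mural and endothelial cells, and *Ccn3*, *Ccn4* and *Ccn5* were more restricted. In satellite cells and myoblasts, the muscle stem cells and their progeny, *Ccn1* stood at 456 CPM [417–497] in Uninjured, 631 [566–700] at 1 dpi, 460 [443–478] at 3 dpi and 628 [578–681] at 7 dpi. Endothelial cells had 602 CPM [465–767], 837 [734–951], 493 [426–567] and 476 [406–556] from 22 to 128 cells per library, and their highest level was at 1 dpi, where mesenchymal cells were below their own Uninjured level. Schwann cells, the glia of peripheral nerves, had 385 to 486 CPM of *Ccn1*. In monocytes and macrophages *Ccn1* was at 14.6, 11.9, 15.4 and 46.6 CPM, below the lymphoid values of the first 3 libraries and above that of 7 dpi.

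*Ccn2* was low in satellite cells and myoblasts, with 21.5 to 49.6 CPM, and in Schwann cells, with 39.2 to 105 CPM. Endothelial cells had 241 CPM of *Ccn2* in Uninjured, from 26 UMIs in 22 cells, against 160 CPM in mesenchymal cells. They had 104 CPM at 3 dpi and 88.2 CPM at 7 dpi. In mural cells, the pericytes and smooth muscle of vessels, *Ccn2* stood at 226 CPM [199–256] in Uninjured, 780 [667–907] at 1 dpi from 24 cells, 930 [792–1085] at 3 dpi from 27 cells and 177 [163–193] at 7 dpi. The mural cells of 7 dpi lay for 76.3% in a cluster that hardly held cells of the other libraries. That cluster was led by markers of the mesenchymal class, so that library is not set against the others here. Between Uninjured and 3 dpi the order in mural cells was that of the mesenchymal class, although the intervals of 1 and 3 dpi overlapped. The mesenchymal class stood at 160, 330 and 585 CPM in Uninjured and at 1 and 3 dpi, each below the mural level.

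Outside mesenchymal cells, Schwann cells had the highest *Ccn3* of the classes with at least 50 cells in every library, at 80.5 CPM [63.2–101] in Uninjured, 122 [99.1–148] at 1 dpi, 56.3 [35.7–84.5] at 3 dpi and 36.2 [21.1–58.0] at 7 dpi. It was at most 4.31 CPM in satellite cells and myoblasts. At 7 dpi 127 cells with erythroid markers and 40 mast cells held 72.4 and 149 CPM of *Ccn3* and 574 and 609 CPM of *Ccn1*. Of the 127 cells 65.4% lay in cluster 23 and 16.5% in cluster 24, both led by markers of the mesenchymal class. They are therefore not read as a class apart from mesenchymal cells. The part of free RNA or doublets in these small classes was not tested. *Ccn4* was detected in satellite cells and myoblasts at 23.3 CPM [15.2–34.2], 19.7 [9.84–35.3], 57.4 [51.3–63.9] and 45.3 [32.7–61.2], so these cells had more *Ccn4* than mesenchymal cells in the first 3 libraries and showed a smaller step from 1 to 3 dpi, 2.91-fold [1.61–5.89]. All cells of this class at 1 dpi lay in cluster 19, while at 3 dpi 67.8% lay in cluster 17 and 30.6% in cluster 19. *Ccn5* stayed at 3.59 to 10.7 CPM there.

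**Figure D3:**
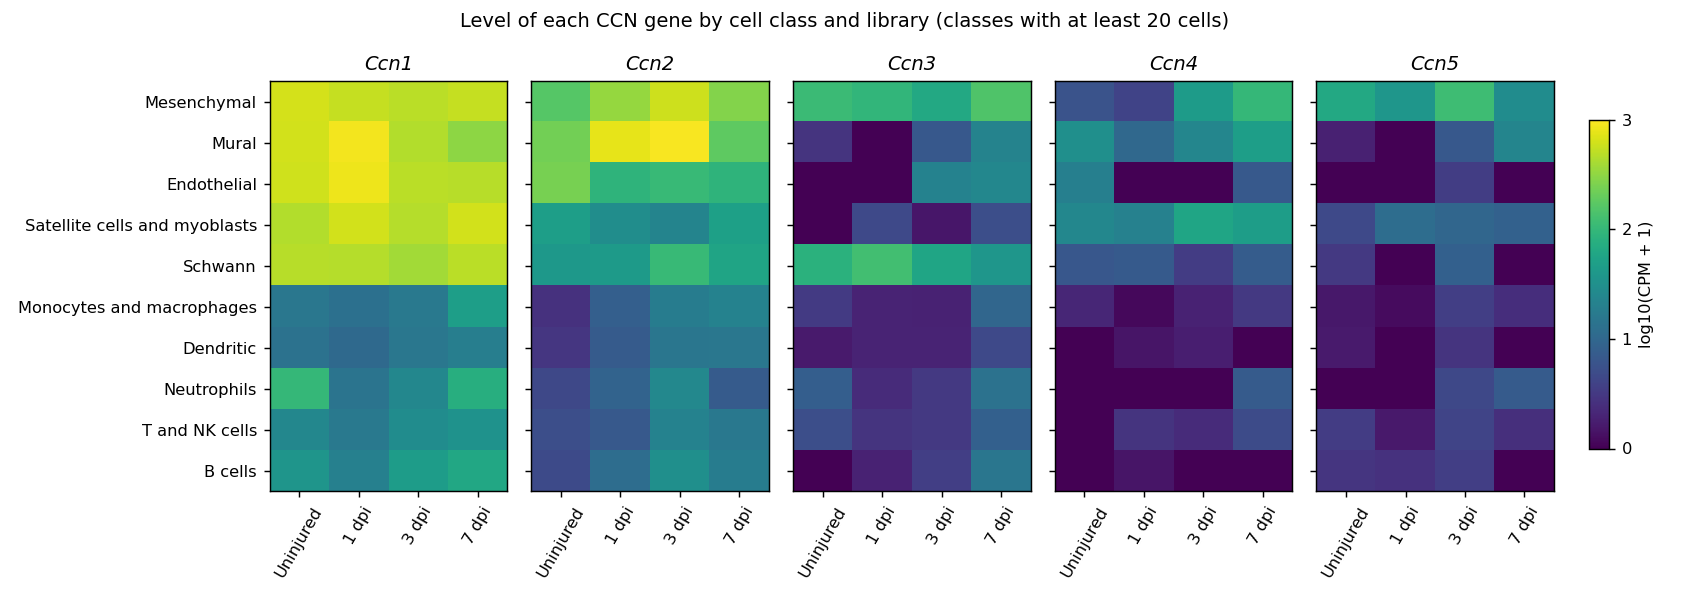
Level of each CCN gene as log10(CPM + 1) (colour) by cell class (rows) and library (columns), white where a class had under 20 cells. Erythroid, mast and unassigned cells and other small classes are not drawn. *Ccn1* is bright in mesenchymal, mural, endothelial, satellite and Schwann cells. *Ccn5* reaches 115 CPM in the mesenchymal row and at most 22.4 CPM in the other rows drawn, in mural cells of 7 dpi. Cells with erythroid markers of 7 dpi, which are left out, had 43.5 CPM of *Ccn5*. They lay mostly in clusters led by markers of the mesenchymal class.

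Mesenchymal cells of muscle are a mixture of fibroblast and progenitor states, so the members were next read in groups set by marker lists, again without CCN genes. The groups are called by the first gene of their list: *Pi16*-list (with *Dpp4*, *Cd55*, *Sema3c* and *Wnt2*, genes of adventitial fibroblasts), *Smoc2*-list (with *Col15a1*, *Hsd11b1* and *Lpl*, of interstitial fibroblasts), *C7*-list (with *Gdf10* and *Hmcn2*), *Cxcl5*-list (with *Prg4*, *Has1*, *Il6* and *Ccl2*, of fibroblasts after injury), *Lrrc15*-list (with *Tnn*, *Aspn*, *Cthrc1* and *Postn*, of osteochondral progenitors), *Tnmd*-list (with *Thbs4*, *Scx*, *Mkx*, *Fmod* and *Kera*, of tendon cells) and *Col2a1*-list (with *Acan*, *Sox9* and other cartilage genes). A *Pi16* UMI was present in 94.9% of *Pi16*-list cells against 21.7% of other mesenchymal cells, *Smoc2* in 97.6% against 37.2% and *C7* in 87.0% against 5.52%. *Tnmd* was present in 84.5% against 7.65% and *Col2a1* in 98.8% against 16.4%. Only 43.7% of *Cxcl5*-list cells had a *Cxcl5* UMI, against 2.92%, and 35.5% of *Lrrc15*-list cells had *Lrrc15*, against 2.26%. The groups were set by these same genes, so these shares describe the gate and do not check what the cells are. Cells of the same list did not lie in the same clusters in every library. Of the *Lrrc15*-list cells 58.7% lay in cluster 4 at 3 dpi, against 34.9% in cluster 23 and 25.04% in cluster 33 at 7 dpi, and cluster 23 held 25.2% to 32.8% of the *Pi16*-list, *Smoc2*-list and *Cxcl5*-list cells of 7 dpi, so a ratio within a list also compares cells of different clusters. The makeup turned over with time. *Pi16*-list and *Smoc2*-list cells together were the bulk of Uninjured, at 33.2% and 48.1% of mesenchymal cells, *Cxcl5*-list cells reached 29.96% at 3 dpi, and *Lrrc15*-list and *Col2a1*-list cells made up 64.4% and 15.6% at 7 dpi.

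**Figure D4:**
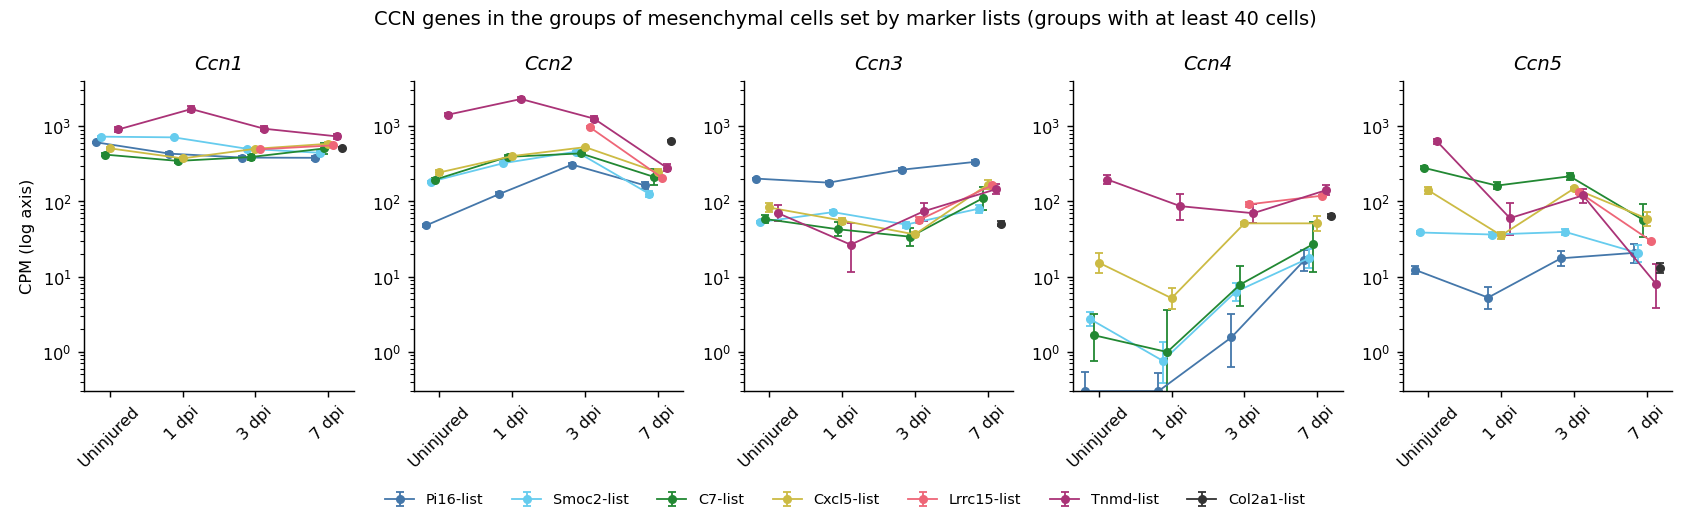
CPM of each CCN gene (log axis) in the marker list groups of mesenchymal cells by library, for groups with at least 40 cells, with exact 95% Poisson intervals. Points at the bottom edge stand for 0.3 CPM or less. *Ccn3* is highest in the *Pi16*-list group in all 4 libraries, and *Ccn2* of the *Tnmd*-list group goes from 2306 CPM at 1 dpi to 281 at 7 dpi.

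Among groups of at least 40 cells *Ccn3* had its highest level in the *Pi16*-list cells of each library. It stood there at 202 CPM [196–207] in Uninjured, 178 [168–188] at 1 dpi, 264 [250–280] at 3 dpi and 336 [313–360] at 7 dpi, which was 3.28, 2.44, 5.63 and 2.38 times the level in all other mesenchymal cells of the same library. The group held 62.5% of all mesenchymal *Ccn3* UMIs in Uninjured with 33.2% of the cells. This share was 37.6%, 32.8% and 6.32% at 1, 3 and 7 dpi, with 20.8%, 13.2% and 2.46% of the cells. At 7 dpi 75.7% of the *Ccn3* UMIs lay in *Lrrc15*-list cells, which were 64.4% of the cells. *Smoc2*-list cells had 53.3, 72.2, 49.3 and 80.3 CPM. From 3 to 7 dpi *Ccn3* was higher in each of the 6 groups that could be compared, by 1.27-fold in *Pi16*-list cells, 1.63 in *Smoc2*-list, 1.98 in *Tnmd*-list, 2.89 in *Lrrc15*-list, 3.28 in *C7*-list and 4.61 in *Cxcl5*-list cells. In the *Lrrc15*-list cells that filled the 7 dpi library it stood at 164 CPM [161–168], against 56.8 [51.8–62.1] at 3 dpi.

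The same *Pi16*-list cells were poor in *Ccn2* and *Ccn4*. Their *Ccn2* stood at 48.1 CPM [45.5–50.8], 125 [117–134], 310 [294–326] and 164 [148–181], a ratio of 0.222, 0.329, 0.508 and 0.590 to the other mesenchymal cells. *Ccn2* was therefore lower in this group in each library, but among groups of at least 40 cells it also had its largest upward ratios there, 2.61-fold [2.39–2.84] higher at 1 dpi and 2.47-fold [2.27–2.69] higher again at 3 dpi. Of *Ccn4* the *Pi16*-list cells held 7, 0, 7 and 39 UMIs in 2785, 801, 856 and 407 cells, a CPM 27.2-fold lower than in the other mesenchymal cells in Uninjured, 30.3-fold lower at 3 dpi and 6.14-fold lower at 7 dpi.

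*Ccn2* differed in the same direction in all groups compared at the first and last steps, but not between 1 and 3 dpi. It was higher at 1 dpi than in Uninjured in *Smoc2*-list (1.77-fold), *C7*-list (2.01-fold), *Cxcl5*-list (1.65-fold) and *Tnmd*-list cells (1.62-fold), as in the *Pi16*-list. From 1 to 3 dpi it was higher again in *Pi16*-list, *Smoc2*-list (1.42-fold) and *Cxcl5*-list cells (1.32-fold), at a ratio of 1.11 in *C7*-list cells and 1.82-fold lower in *Tnmd*-list cells, whose highest level, 2306 CPM [2138–2485], was at 1 dpi. From 3 to 7 dpi it was lower in all 6 groups compared, from 1.89-fold in *Pi16*-list cells over 2.05-fold in *C7*-list, 2.17-fold in *Cxcl5*-list and 3.65-fold in *Smoc2*-list cells to 4.50-fold in *Tnmd*-list and 4.77-fold in *Lrrc15*-list cells. The *Lrrc15*-list cells of 3 dpi, 535 in number, had 978 CPM of *Ccn2* [957–999], while the 10653 cells of the same list at 7 dpi had 205 CPM [201–209], and most of these cells lay in different clusters.

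At 7 dpi the highest *Ccn2* lay in the *Col2a1*-list cells, the group with cartilage genes. The 2586 cells of this group had 644 CPM [630–658], 3.13 times [3.05–3.21] the other mesenchymal cells of the library, and with 15.6% of the mesenchymal cells they held 36.7% of its *Ccn2* UMIs. The other members were not raised there. *Ccn1* at 521 CPM was 0.957 times the rest, and *Ccn4* at 64.2, *Ccn3* at 50.9 and *Ccn5* at 12.9 CPM were 0.609, 0.310 and 0.422 times the rest. Uninjured, 1 and 3 dpi held 3, 0 and 1 cells of this group, so its course cannot be followed.

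*Col10a1*, the collagen of hypertrophic cartilage, split the *Col2a1*-list cells further. Cells without a *Col10a1* UMI (1691), with 1 to 2 (343) and with 3 or more (552) had 692, 659 and 498 CPM of *Ccn2*, so that the cells rich in *Col10a1* stood at 0.719 times [0.679–0.761] those without. *Ccn1* and *Ccn4* ran the other way, at 494, 556 and 580 CPM and at 60.9, 57.1 and 77.4 CPM, ratios of 1.17 and 1.27 [1.09–1.48]. *Ccn3* and *Ccn5* stayed near 50.9 and 12.9 CPM, at 48.3 to 57.7 and 9.62 to 13.5 CPM. The *Col10a1* UMIs were not scaled to the depth of the cell, and the part of depth in these ratios was not tested.

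*Ccn4* had its highest level in the *Tnmd*-list cells in Uninjured, while at 7 dpi most of its UMIs lay in the far more numerous *Lrrc15*-list cells. In Uninjured the 98 *Tnmd*-list cells, 1.17% of mesenchymal cells, held 52.0% of the *Ccn4* UMIs of the class and stood at 196 CPM [170–225], 83.2 times [67.7–102] the other mesenchymal cells. Their level was 86.6 CPM [56.6–127] at 1 dpi, 69.8 [52.0–91.8] at 3 dpi and 141 [121–164] at 7 dpi, when the ratio was 1.44. At that time the *Lrrc15*-list cells, 64.4% of mesenchymal cells, stood at 119 CPM and the other named groups at 16.5 to 64.2 CPM. The step from 1 to 3 dpi was seen in other cells. *Smoc2*-list cells went from 0.760 to 6.30 CPM (8.28-fold), *C7*-list cells from 0.995 to 7.84 CPM (7.88-fold, from 2 UMIs at 1 dpi) and *Cxcl5*-list cells from 5.18 to 51.1 CPM (9.88-fold [7.30–13.7]), while the *Tnmd*-list ratio was 0.806 [0.493–1.35]. Of the *Ccn4* UMIs of 1 dpi, 39.8% lay in *Cxcl5*-list and 24.1% in *Tnmd*-list cells. At 3 dpi 54.1% lay in *Cxcl5*-list and 31.6% in *Lrrc15*-list cells, and at 7 dpi 81.6% lay in *Lrrc15*-list cells. These shares also carry the number and depth of the cells. At 3 dpi the *Cxcl5*-list and *Lrrc15*-list medians were 11863.5 and 14858 UMIs, against 5584 in the whole class.

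*Lrrc15*-list cells had 91.6 CPM of *Ccn4* [85.3–98.3] at 3 dpi and 119 [117–122] at 7 dpi, 2.62 and 2.12 times the other mesenchymal cells. Their own ratio between these libraries, whose cells of this list lay mostly in different clusters, was 1.30, against 2.27 in the whole class. With the makeup of 7 groups held at that of 3 dpi the class ratio became 1.26.

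*Ccn5* was higher in the *C7*-list cells than in the other mesenchymal cells of each library, though not highest there in each. It stood there at 280 CPM [266–295] in Uninjured, 163 [146–181] at 1 dpi, 216 [194–241] at 3 dpi and 57.4 [33.5–92.0] at 7 dpi, or 5.98, 5.52, 1.93 and 2.07 times the other mesenchymal cells. In Uninjured this group of 513 cells held 30.7% of the *Ccn5* UMIs. *Tnmd*-list cells were higher still in Uninjured, at 629 CPM [581–680], but had 59.99 [35.6–94.8] at 1 dpi, 120 [96.6–148] at 3 dpi and 8.08 [3.88–14.9], from 10 UMIs, at 7 dpi, which makes them 10.5-fold lower at the first step and 14.9-fold lower at the last. Of the *Tnmd*-list cells 81.9% lay in cluster 6 at 3 dpi and 33.0% at 7 dpi, so the last step also compares cells of different clusters.

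Most *Ccn5* at 3 dpi lay in the *Cxcl5*-list cells. Their level was 141 CPM [127–155], 35.4 [31.5–39.7], 149 [144–154] and 59.1 [47.0–73.4], a 4.21-fold step from 1 to 3 dpi. They held 59.5% of the *Ccn5* UMIs of 3 dpi with 29.96% of the cells. Their median depth at 3 dpi was 11863.5 UMIs against 5584 in the whole class, so this share also carries depth. By level they stood at 149 CPM against 115 in the whole class. *Smoc2*-list cells showed no such step, at 38.7 CPM [36.7–40.8], 36.4 [33.3–39.6] and 39.3 [35.4–43.6] in the first 3 libraries. From 3 to 7 dpi *Ccn5* was lower in 5 of the 6 groups compared, and in *Pi16*-list cells the ratio was 1.18 [0.809–1.71].

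*Ccn1* had the smallest ratio of highest to lowest level between the groups of at least 40 cells in each library. At 1 dpi it still ran from 346 CPM in *C7*-list to 1696 CPM in *Tnmd*-list cells. *Smoc2*-list cells had the highest level of the fibroblast groups in Uninjured and at 1 dpi, with 728 CPM [720–737] and 713 [699–727], then 503 [489–518] and 444 [421–469]. *Tnmd*-list cells had 908 [851–969], 1696 [1552–1850], 928 [860–1001] and 734 [687–783], 1.36 to 3.20 times the other mesenchymal cells. The level at 1 dpi was higher than in Uninjured in this group, by 1.87-fold [1.67–2.08], and lower in the *Pi16*-list, *C7*-list and *Cxcl5*-list groups, by ratios of 0.709, 0.824 and 0.735.

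The *Tnmd*-list cells were not of a single kind. Of them 74, 41, 86 and 102 lay in 1 cluster of an unsupervised clustering made without the CCN genes and 24, 3, 19 and 207 elsewhere. Inside that cluster of Uninjured *Ccn4* stood at 258 CPM and *Ccn2* at 1761 CPM, against 15.5 and 454 CPM outside it, and at 7 dpi the values were 186 against 90.5 CPM for *Ccn4* and 340 against 214 CPM for *Ccn2*. Markers of other cell types were also found in the 98 Uninjured cells of the list, with 156 CPM summed over the 6 satellite cell markers, of which *Pax7*, *Myf5*, *Cdh15* and *Myod1* were at 0, and 25.7 CPM over the 7 endothelial markers, of which *Emcn*, *Cldn5*, *Esam* and *Tie1* were at 0. Their part in these levels was not tested.

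**Figure D5:**
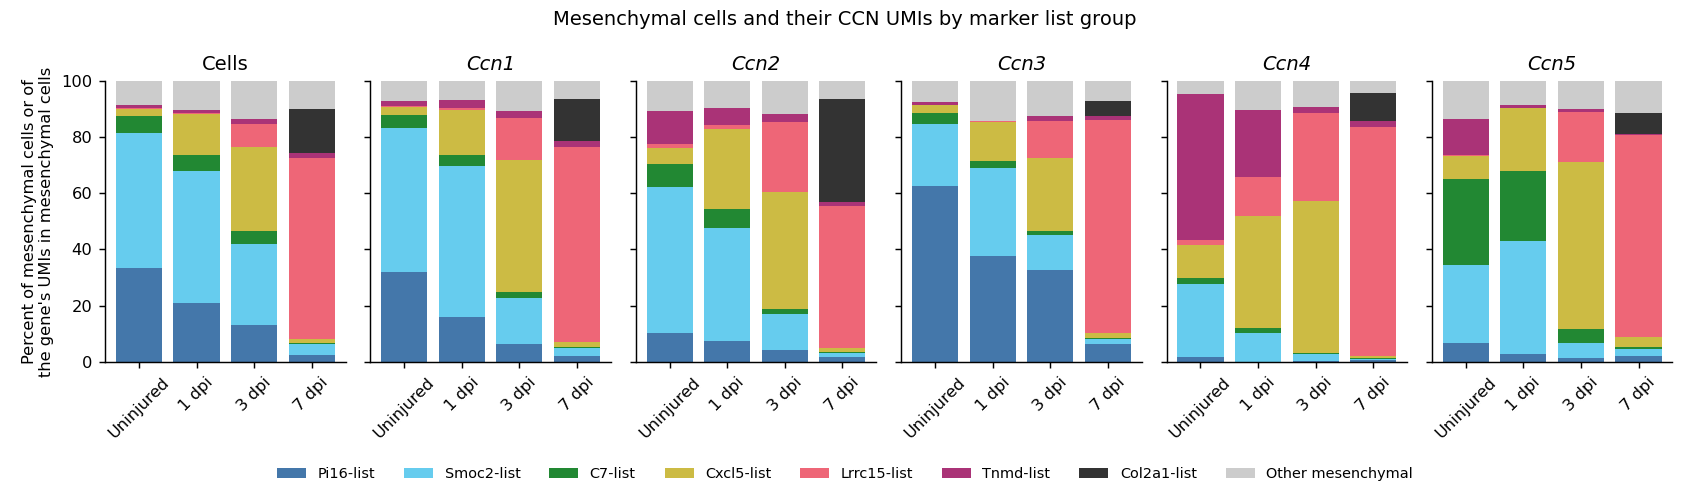
Percent of mesenchymal cells (first panel) and of the mesenchymal UMIs of each CCN gene (other panels) by marker list group (colours) in each library, bars adding to 100. In Uninjured the *Tnmd*-list group holds 52.0% of *Ccn4* with 1.17% of the cells, and at 7 dpi the *Col2a1*-list group holds 36.7% of *Ccn2*.

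The courses of the whole class were also read with the shares of the marker list groups held fixed. Turnover within a list remains in the ratios below, which carry no interval. The *Lrrc15*-list held 23 cells in Uninjured and 11 at 1 dpi. When the makeup of the earlier library was held over 7 groups, the *Col2a1*-list left out and cells of no list included, the ratios from Uninjured to 1 dpi were 0.882 for *Ccn1*, 1.85 for *Ccn2*, 1.02 for *Ccn3*, 0.499 for *Ccn4* and 0.548 for *Ccn5*. From 1 to 3 dpi they were 0.880, 1.42, 0.965, 6.40 and 2.09, so *Ccn4* and *Ccn5* stayed past 2-fold and the lower *Ccn3* of 3 dpi, a ratio of 0.685 in the whole class, was no longer seen. From 3 to 7 dpi they were 1.08, 0.363, 2.53, 1.26 and 0.375. Here *Ccn3* and *Ccn2* stayed past 2-fold, *Ccn5* did too, and *Ccn4* did not.

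Cells in division had their own levels. Mesenchymal cells with UMIs of at least 3 of 5 cycling genes numbered 86, 85, 689 and 1755, against 8037, 3513, 4815 and 10360 cells with none. *Ccn1* was lower in the cycling cells of every library, at ratios of 0.656, 0.490, 0.819 and 0.801, and *Ccn3* at ratios of 0.330, 0.517 and 0.649 at 1, 3 and 7 dpi with 1.00 in Uninjured. *Ccn4* at 3 dpi was higher in the cycling cells, at 70.3 against 24.96 CPM or 2.82-fold [2.56–3.10], but stood at a ratio of 0.944 at 7 dpi. The cycling cells were deeper, with a median of 19309 against 4557 UMIs at 3 dpi, and the part of depth in these ratios was not tested.

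Within single cells thinned to 1000 UMIs, members were found together or apart depending on the library. In Uninjured 24.9% of mesenchymal cells with a *Ccn5* UMI also had *Ccn2*, against 9.16% of cells without *Ccn5*. These shares were 33.3% and 16.9% at 1 dpi, 32.4% and 27.5% at 3 dpi and 17.6% and 20.6% at 7 dpi, and the intervals of both shares overlapped at 3 and 7 dpi but not before. *Ccn1* was more frequent in cells with *Ccn2* in every library, at 44.6% against 34.4%, 41.8% against 30.7%, 40.4% against 30.98% and 42.9% against 36.4%. *Ccn5* was found in 3.87% [2.27–6.13] of cells with *Ccn3* at 3 dpi, against 7.88% [7.20–8.61] of cells without it. In Uninjured these shares were 2.54% [1.56–3.90] and 4.17% [3.74–4.65], and here, at 1 dpi and at 7 dpi the intervals of both shares overlapped. These shares pool the groups of cells described above.

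The receptors and coreceptors of CCN proteins were followed as a list of 13 genes. From Uninjured to 1 dpi 4 were at least 2-fold higher and 1 lower, from 1 to 3 dpi 1 of 12 was higher and 1 lower, and from 3 to 7 dpi 2 of 13 were higher and 1 lower, with median log2 ratios of 0.42, -0.12 and -0.13. Among all genes 10.2%, 7.13% and 14.3% were higher and 5.46%, 6.3% and 8.49% lower at these steps, shares against which the counts of this and the following lists stand. *Itga5*, the alpha chain of the fibronectin receptor, took a course like that of *Ccn2*, with 46.1, 108, 230 and 78.3 CPM. *Sdc4*, a heparan sulphate proteoglycan of the cell surface, stood at 97.0, 231, 265 and 164 CPM, 2.38-fold higher at the first step. *Itgb1*, the beta chain most CCN receptors share, was at 423, 325, 403 and 408 CPM. The other 2 genes past 2-fold at 1 dpi, *Itgam* (4.11-fold) and *Itgb2* (7.54-fold), are integrins of leucocytes, and *Ptprc* in the same cells went from 1.11 to 10.98 CPM.

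Other genes known to respond with *Ccn1* and *Ccn2* were counted in the same way. Of 21 further YAP/TEAD target genes none was at least 2-fold higher and 2 were lower at the first step, 3 were higher and 1 lower at the second, and 1 was higher and 5 lower at the third, with medians of 0.21, -0.11 and -0.11 on the log2 scale. These are small counts, and 2 of 21 lower is near the 5.46% of all genes at that step. The second step included *Ankrd1* (16.6-fold, to 3.28 CPM) and *Ajuba* (2.98-fold), and the third step *Nt5e* (8.47-fold higher), *Axl* (3.76-fold lower) and *F3* (3.52-fold lower). Among 8 YAP, TAZ, TEAD and VGLL genes, *Tead2* was 2.02-fold and 2.34-fold higher at the last steps, while *Vgll3* was 2.81-fold lower at 7 dpi.

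Of 19 immediate early genes, 2 were at least 2-fold higher and 3 lower at 1 dpi, 1 higher and 3 lower at 3 dpi and 1 lower at 7 dpi, with medians of -0.40, -0.79 and -0.17. Their summed level in mesenchymal cells was 37622, 24486, 14451 and 12723 CPM, highest in Uninjured, as *Ccn1* was. *Fos* stood at 8117, 3782, 2053 and 2388 CPM. These genes can also respond to tissue digestion, and the part of that response in the level of *Ccn1* was not tested.

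Of 12 TGF-beta response genes, 9 were at least 2-fold higher and none lower from 1 to 3 dpi, the step at which *Ccn4* and *Ccn5* were higher, with a median log2 ratio of 1.24. *Acta2* was 18.3-fold, *Ltbp2* 14.01-fold, *Postn* 13.9-fold and *Tagln* 8.17-fold higher, and at 7 dpi 4 were higher, *Tagln* 5.70-fold and *Acta2* 5.02-fold. *Col1a1*, *Col3a1* and *Postn* are markers of the class or of a list used here, and *Acta2* is a marker of the mural class. The step from Uninjured to 1 dpi had 1 gene of this list higher, *Ltbp2* at 4.99-fold, and 3 lower.

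Wnt response genes had few UMIs, and none of the 10 exceeded 20.5 CPM in mesenchymal cells of any library. Those with enough UMIs were 7, 8 and 9 at the 3 steps, of which 2, 3 and 6 were at least 2-fold higher and 1, 0 and 0 lower. At 3 dpi *Axin2* was 2.52-fold higher, and at 7 dpi *Lef1* was 7.15-fold, *Tcf7* 6.69-fold, *Rnf43* 4.33-fold and *Notum* 4.32-fold higher, with levels of 4.56 CPM for *Lef1* and 4.13 for *Notum*. The median log2 ratio was 0.60 from 1 to 3 dpi, where that of *Ccn4* was 3.83, and 1.36 from 3 to 7 dpi, where that of *Ccn4* was 1.19. All these are values of the whole class, and the Wnt list was not read with the makeup of groups held.

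The genes closest in pattern to each member were ranked by Pearson correlation of log2(CPM + 10) among 12026 genes over 65 combinations of class or group and library with at least 50 cells, which share libraries and, for groups and their class, cells. *Ccn1* was closest to *Ryk* (r = 0.958), *Fermt2* (0.954) and *Tcaf1* (0.954), none of which was among its 3 closest by Spearman correlation, where *Ryk* had 0.727. *Ccn2* was closest to the matrix proteoglycan gene *Bgn* (0.923), the collagen cross-linking gene *Loxl3* (0.921) and *Dpysl3* (0.917). *Ccn3* was closest to the fibril-associated collagen gene *Col14a1* (0.918), to *Mfap5* (0.913), a marker of the mesenchymal gate, and to *Ndrg4* (0.902). *Ccn4* was closest to the tenascin gene *Tnc* (0.864), *Rhod* (0.851) and the tendon and periosteum collagen gene *Col12a1* (0.828). *Ccn5* was closest to *Cilp* (0.899), *Prcd* (0.894) and the fibulin gene *Fbln1* (0.880). These values describe a shared pattern over the combinations listed and were not tested.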

How the data were processed

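The authors digested muscle with collagenase, made 10x Genomics libraries and, per the labels, ran Cell Ranger 5.0.0, which aligns with STAR; the submitters' processing notes name mm10 and Seurat 3.1.1. The deposited UMI counts were whole numbers per gene and cell. The labels mention down-sampling of reads as well. If the files were written before or after that step is not given in the sources used here. Genes were matched by identifier to GENCODE M21 (GRCm38), 32235 of 32285 (99.8%). The RefSeq promoter table held *Ccn1* and *Ccn6*, 2 of 6 genes.

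Cells were kept within 2 SD of their library's mean log10 UMIs and genes and with at most 10% mitochondrial UMIs, and the 7.5% with the highest Scrublet scores in each library were removed, leaving 10307, 9641, 12604 and 20301 cells. Each marker's UMIs, scaled to the cell's depth, were divided by the 90th percentile of its nonzero values and limited to 1, and a cell took the class with the highest mean over its list if that was at least 0.1, led by 0.03 and rested on at least 2 markers. The scoring was set after the files were seen. The study's clustering was replaced by Leiden clusters (2000 variable genes, 30 components, 15 neighbours, resolution 1, 35 clusters). They served as an alternative to the gates and to describe where gated cells lay. They were also used to set aside mural cells of 7 dpi and cells with erythroid markers, and to split the *Tnmd*-list cells. CPM is the sum of deposited UMI counts over a set of cells per 1000000 of all their UMIs. Intervals are exact Poisson (levels), conditional binomial (ratios) and Clopper-Pearson (shares) at 95%, and a count of 0 was set against 3 UMIs. Those of levels and ratios were checked on simulated sums drawn as Poisson counts, so the check could not show the effect of spread between cells. With 1 library per time point there was no test.

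Named genes were the members, *Ccn6*, the 3 genes most like each member among those with at least 1000 UMIs, at most 4 genes of each list, and gate markers. Members and lists were chosen with earlier results of these data known. Alternatives were scaling by the median gene ratio, thinning to 1000 UMIs, no filter, doublets kept, a stricter gate, Leiden classes, subtraction of the lymphoid level, a minimum of 100 UMIs and Spearman correlation. Tools were Python 3.11.15, numpy 2.4.6, scipy 1.17.1, pandas 2.3.3, scanpy 1.11.5, anndata 0.12.19, scikit-learn 1.9.0, umap-learn 0.5.12, igraph 0.11.9 and matplotlib 3.10.9.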

Additional observations from a re-analysis of the deposited data

Results flagged for a closer look

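CCN genes with ratios in opposite directions in different classes or groups between the same pair of libraries were listed where both counting intervals were clear of a ratio of 1 both libraries held at least 50 cells and 20 UMIs, and both levels were above 2 times the lymphoid level, with the largest ratio in each direction given, and none of these differences was tested. From Uninjured to 1 dpi *Ccn1* was higher in satellite cells and myoblasts, at a ratio of 1.38, and lower in *Pi16*-list cells, at 0.709. From 1 to 3 dpi *Ccn1* was higher in *Cxcl5*-list cells (1.34) and lower in endothelial cells (0.589), and from 3 to 7 dpi it was higher in satellite cells and myoblasts (1.36) and lower in *Tnmd*-list cells (0.791). *Ccn3* was higher in Schwann cells (1.51) and lower in *Cxcl5*-list cells (0.670) from Uninjured to 1 dpi. Between 1 and 3 dpi *Ccn3* was higher in *Pi16*-list cells (1.49) and lower in Schwann cells (0.463).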

How the results depend on the processing

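Of the 15 log2 ratios of members between successive libraries in mesenchymal cells, none changed sign under the alternatives given here. With the makeup of marker list groups held, *Ccn3* at 1 dpi was at 0.028 against -0.21 and no other ratio changed sign. Scaling by the median gene ratio gave, for the steps to 1, 3 and 7 dpi, -0.43, -0.036 and 0.23 for *Ccn1*, 0.87, 0.92 and -0.998 for *Ccn2*, -0.39, -0.45 and 1.28 for *Ccn3* and -0.94, 1.73 and -1.96 for *Ccn5*, with 1.28 at 7 dpi for *Ccn4*. Thinning gave -0.15, -0.20 and 0.062 for *Ccn1*, 0.57 and -0.87 at 3 and 7 dpi for *Ccn2*, -0.015, -0.31 and 0.75 for *Ccn3*, 1.85 at 7 dpi for *Ccn4* and -0.56, 1.29 and -1.84 for *Ccn5*. No filter gave -0.32, -0.10 and 0.18 for *Ccn1*, 0.66 and -0.99 at 1 and 7 dpi for *Ccn2*, 1.26 at 7 dpi for *Ccn3*, -1.71, 3.38 and 0.98 for *Ccn4* and -1.05 and 1.78 at 1 and 3 dpi for *Ccn5*. The stricter gate moved *Ccn1* at 1 dpi to -0.23, doublets kept moved *Ccn1* at 7 dpi to 0.16, Leiden classes moved *Ccn3* at 7 dpi to 1.13, and a gate without 7 clusters led by markers of other cell types, chosen after seeing the data, moved *Ccn2* at 7 dpi to -1.07. All of these moved beyond the counting interval of the main value, which is narrow at these depths and holds no variation between cells or mice. With at least 100 UMIs, 862 genes were 2-fold higher and 460 lower at the first step (1565 and 836 at 20 UMIs), 667 and 581 at the second (1085 and 959), and 1434 and 1005 at the third (2349 and 1391). Subtracting the lymphoid level moved 16 of 20 mesenchymal CPM values beyond their interval, and at least 2 of the 3 most similar genes stayed so by Spearman correlation for 3 of the 5 members. No paired analysis was possible because each time point has a single library. Depth limits *Ccn6* and, at 1 dpi, *Ccn4*.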
